A study of Rattus norvegicus with 9 samples.

Results

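The mitochondrial respiratory chain and ATP synthase were followed in rat adrenal medulla after no, 1 or 6 sessions of immobilization stress. Members were the genes whose symbol follows the naming of the chain's nuclear subunits, that is Nduf followed by a, b, c, s or v and a number, Sdha to Sdhd, Uqcr, Cox4 to Cox8 with a letter a to c, and Atp5. Each gene was read from 1 probe set, the one with the highest mean level among probe sets annotated to that symbol alone. The rule found 77 of the 14217 genes on the array that have such a probe set, covered by 86 probe sets, and 74 of the 77 passed a filter on dim probe sets. The rule uses names only, but the filter and the choice of probe set used mean levels over all arrays, 6XIMO included. The members were also chosen with earlier results of these data known. By textbook assignment the 74 comprised 33 genes of complex I, 4 of complex II, 7 of complex III, 14 counted with complex IV and 16 of complex V, the ATP synthase.

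The respiratory chain passes electrons from NADH and succinate through complexes I to IV to oxygen and pumps protons across the inner mitochondrial membrane, and ATP synthase uses the returning protons to make ATP. Most subunits are encoded in the nucleus, while a core of complexes I, III, IV and V is encoded in mitochondrial DNA. Chromaffin cells of the medulla spend ATP on loading catecholamines into granules and on secretion, and the neighbouring cortex carries out part of steroid synthesis inside mitochondria.

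All arrays held RNA from adult Rattus norvegicus of 280 to 320 g, 3 arrays per group. Control rats were left unstressed, 1XIMO rats were immobilized in 1 session of 2 h, and 6XIMO rats in sessions of 2 h on 6 days in a row, and both medullae were taken after the last session. No genotype or agent other than immobilization is given, some label fields name mouse or brain, and the labels do not say whether an array is 1 animal, so each p-value reflects sample-to-sample spread alone. Values are intensities on a linear scale, compared as log2(intensity + 16), so that a log2 fold change understates the change of a dim probe set.

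Each array had been scaled to a trimmed mean of 2500.6 to 2501.0, while array medians were 826.6 to 1053 in Control and 1XIMO, 1583 in 6XIMO replicate 1, and 592.9 and 674.8 in replicates 2 and 3. Replicate 1 of 6XIMO stood apart, correlating with the other arrays at 0.604 to 0.730 over genes, against 0.854 or more among the other 8. The 3′ to 5′ ratio of the actin control probe sets, a sign of RNA quality, was 1.447 to 2.155 in Control and 1XIMO and 230.6, 6.106 and 8.874 in 6XIMO. For GAPDH it was 1.097 to 1.41 in Control and 1XIMO and 5.016, 1.789 and 1.869 in 6XIMO. Both ratios were higher in every 6XIMO array than in any other array. RNA quality and 6 sessions therefore cannot be told apart, also when replicate 1 is left out. Markers of both adrenal layers were bright. The 9 measured chromaffin markers, among them Th, Dbh and Pnmt, summed to 298884 to 460771 in Control, 290935 to 569769 in 1XIMO and 1026233 to 2368863 in 6XIMO, and 9 adrenal cortex markers to 342404 to 493876, 323118 to 761704 and 1078291 to 2009163. After 6 sessions 5 of the 9 chromaffin and 7 of the 9 cortex markers rose (2 and 3 after quantile normalization), and their part in the members' values was not tested. In this bulk tissue, fewer cells of a type and less RNA per cell cannot be told apart. The counts of members and of listed genes in 6XIMO are therefore given also after quantile normalization, which gives all arrays the same distribution, and without 6XIMO replicate 1. The median over all genes tested in 6XIMO against Control was -0.23 on the log2 scale and -0.15 after quantile normalization.

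After 1 session the median member lay at the Control level and 1 gene stood out. Of the 74, 1 gene rose (Ndufa5) and 0 fell by limma at an adjusted p under 0.05, where 4.2% of all genes tested were called higher and 5.31% lower. At an unadjusted p under 0.05 the counts were the same, 1 and 0. The members' median log2 fold change was -0.000147, beside -0.13 over all genes, and 37 members lay above 0. The 3 stressed and 3 unstressed arrays did not overlap in 4 members on the high side and 5 on the low side, where 13.4% and 29.5% of all genes tested did so. After quantile normalization Ndufa5 was again the 1 gene called higher (4.08% of genes were) and 0 were lower (3.07%), with 6 lower at an unadjusted p under 0.05, and the members' median became -0.15, beside -0.10 over all genes. Without 6XIMO replicate 1, which enters the shared estimate of the spread, Ndufs4 was called as well (9.84% of genes higher) and 0 were lower (20.3%). With both changes made, 2 members were higher (11.2% of genes) and 12 lower (19%).

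After 6 sessions 24 members rose and 0 fell by limma, where 9.36% of all genes tested were called higher and 14.9% lower. At an unadjusted p under 0.05, 30 were higher and 1 lower, counts given without their shares over all genes. The members' median was 0.41 on the log2 scale, beside -0.23 over all genes. Of the members 58 lay above 0, also given without the share over all genes. All 3 6XIMO arrays exceeded all 3 Control arrays in 33 members, beside 14.9% of genes tested. The count depended on single arrays and on the scale. It was 10, 13 and 11 without Control replicate 1, 2 or 3, 14 in a fit of only these 2 groups, and 6 under median centring. These counts are given without their shares over all genes. Without 6XIMO replicate 1, 58 members rose (17.6% of all genes did) and 1 fell (30.7%), the pseudogene Cox6c-ps1. After quantile normalization, 5 rose (9.2% of genes) and 3 fell (8.35%), with a median of 0.07. The 5 were Ndufa5, Ndufb5, Ndufs7, Ndufa12 and Ndufa2, all of complex I, and they were called in both fits and in both after replicate 1 was left out. After quantile normalization members were called higher no more often than genes in general, and complex I holds the most members. With quantile normalization and without replicate 1, 10 members rose (16.5% of genes) and 5 fell (18.6%). Median centring without replicate 1, added after seeing the data, went the other way, with 67 members higher and a median of 1.314. That count is given without its share over all genes.

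**Figure D1:**
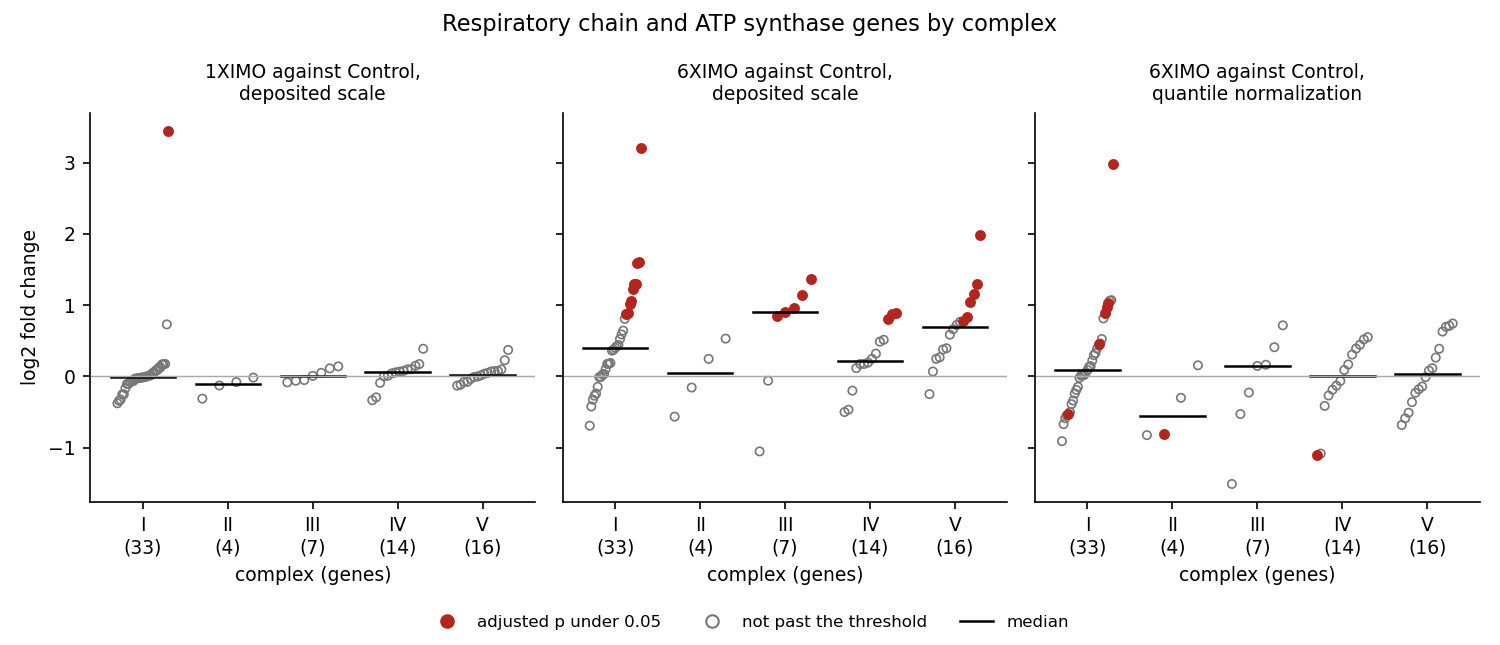
Log2 fold change of each of the 74 genes (points) by complex, for 1XIMO against Control, for 6XIMO against Control on the deposited scale, and for 6XIMO against Control after quantile normalization. Filled red points passed an adjusted p of 0.05 and lines are medians; the 24 genes called on the deposited scale become 5 higher and 3 lower after quantile normalization, and Ndufa5 lies far above the rest in every panel.

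The shift of the members differed between the 6XIMO arrays. Relative to its Control mean, the median member lay at -0.05, 0.11 and -0.07 on the log2 scale in 1XIMO arrays 1 to 3 and at 0.14, 0.64 and 0.80 in 6XIMO arrays 1 to 3. In 65 of 74 members, 6XIMO arrays 2 and 3 both exceeded every Control array. This count is given without its share over all genes, so it cannot show what is particular to the members. In 33 of those 65 array 1 also lay above every Control array, in 29 it lay below every Control array, and in 3 within their range. After quantile normalization the same medians were -0.32, -0.07 and -0.12 in 1XIMO and -0.11, 0.04 and 0.17 in 6XIMO, so the shift of the whole family on arrays 2 and 3 was not seen on that scale. Another abundant family showed a rise on the deposited scale too. Of 43 cytosolic ribosomal protein genes, 27 rose after 6 sessions (9.36% of all genes did) with a median of 1.13. These became 1 gene (9.2%) and -0.01 after quantile normalization, and 39 rose (17.6%) and 1 fell (30.7%) without 6XIMO replicate 1. Of the brightest 10% of genes tested, 321 of 1129 rose (9.36% of all genes) with a median of 0.34, which became -0.14 after quantile normalization. This set was chosen by the mean over all 9 arrays, so genes high in 6XIMO entered it more easily, and its rise is no independent comparison. These 1129 genes hold 58 of the 74 members.

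**Figure D2:**
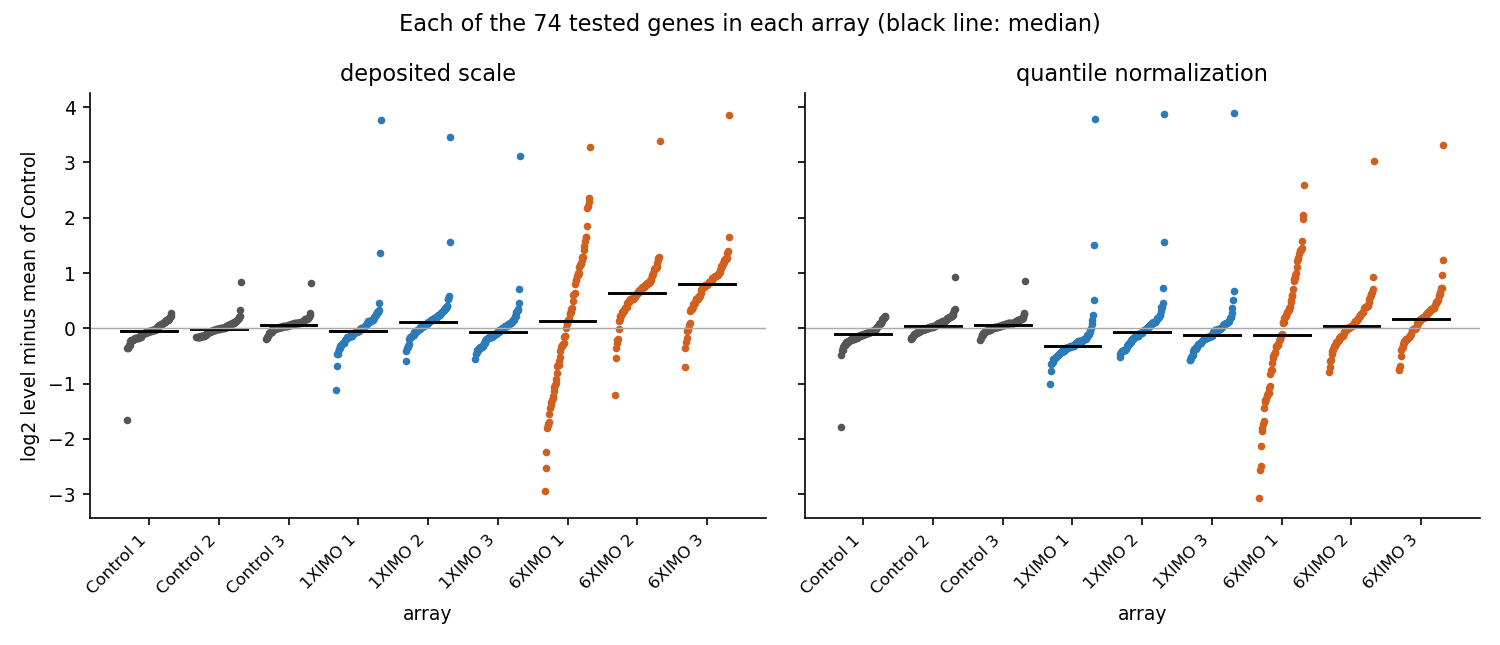
Log2 level of each of the 74 genes minus its Control mean in each of the 9 arrays, on the deposited scale and after quantile normalization, with lines at the median. On the deposited scale 6XIMO arrays 2 and 3 sit at medians of 0.64 and 0.80, array 1 is widely spread around 0.14, and after quantile normalization all 3 medians lie between -0.11 and 0.17.

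Between 6XIMO and 1XIMO, 18 members were higher and 0 lower by limma, where 5.21% and 4.63% of all genes tested were called. At an unadjusted p under 0.05 the counts were 31 and 1, given without their shares over all genes. The median was 0.43, beside -0.08 over all genes, and in 32 members the groups did not overlap with 6XIMO higher, beside 16.1% of genes. Without 6XIMO replicate 1 58 were higher (15.1% of genes) and 0 lower (17.3%). After quantile normalization 4 were higher (3.46%) and 1 lower (2.11%), and with both changes 18 were higher (12.2%) and 4 lower (9.88%). The count fell to 0 under median centring, in a fit of only these 2 groups, and without 1XIMO replicate 2 or 3, and to 1 without 1XIMO replicate 1. It was 9, 7 and 6 without Control replicate 1, 2 or 3, and 10 without 6XIMO replicate 3. Ndufb5, Ndufs7, Ndufa12 and Ndufb3 were called higher on the deposited scale, without 6XIMO replicate 1, after quantile normalization and with both changes, and 0 members were called in every setting tried. The comparisons of 6XIMO with Control and with 1XIMO share the 6XIMO arrays, and both comparisons with Control share the Control arrays.

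Complex I, which oxidizes NADH, held the member with the largest change. Ndufa5, an accessory subunit of the arm that reaches into the matrix, had intensities of 4086, 3956 and 5206 in Control, 59595, 48438 and 38253 in 1XIMO and 22440, 45963 and 63894 in 6XIMO. Every stressed array lay far above every Control array, and the stressed groups overlapped. Ndufa5 rose by 3.45 ± 0.36 (SE) on the log2 scale after 1 session (10.9-fold, limma adjusted p = 0.000453) and by 3.20 ± 0.36 after 6 sessions (9.19-fold, adjusted p = 0.000539). The call held in all 19 alternative settings in both comparisons, with a range of 3.29 to 3.85 after 1 session and 2.87 to 4.23 after 6. Among the 11287 genes tested its rise ranked 46 and 49. Between 6XIMO and 1XIMO the log2 difference was -0.25 ± 0.36 (adjusted p = 0.694), and after quantile normalization it was -0.88 (adjusted p = 0.0446). No other member came near this size, the next being Atp5f1e at 1.98 after 6 sessions. On rat chromosome 4, on the same strand and on the 3′ side of Ndufa5, the next gene is Iqub, which was looked up after the values of Ndufa5 were seen. Iqub, named for an IQ motif and a ubiquitin-like domain, had intensities of 88.65, 45.7 and 68.4 in Control, 20740, 10040 and 12346 in 1XIMO and 2474, 2722 and 3093 in 6XIMO. The 3 groups did not overlap. Iqub rose by 7.39 ± 0.32 after 1 session (adjusted p = 8.54e-06) and by 5.08 ± 0.32 after 6 (adjusted p = 3.14e-05), and was lower in 6XIMO than in 1XIMO, with a log2 difference of -2.31 ± 0.32 (adjusted p = 0.00945). Ndufa5 and Iqub each had 1 probe set, and whether the Ndufa5 probe set reads any transcript other than that of Ndufa5 was not tested.

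**Figure D3:**
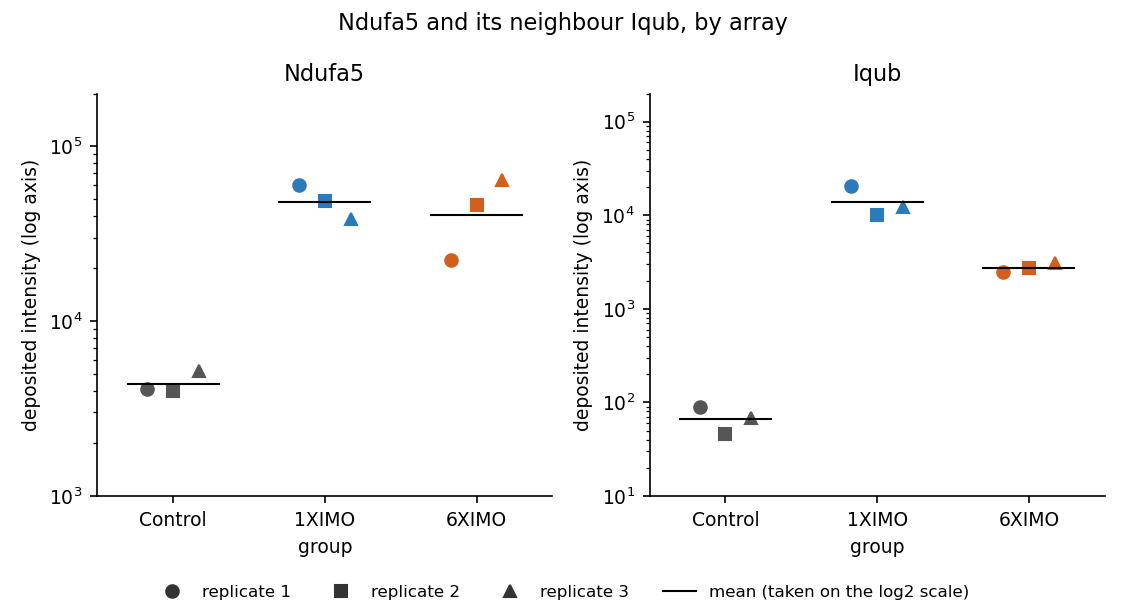
Intensity of Ndufa5 and of its neighbour Iqub in each of the 9 arrays on a log axis, with a line at each group's mean on the log2 scale. Ndufa5 sits at 3956 to 5206 in Control and 22440 to 63894 in the stressed groups, and Iqub sits at 45.7 to 88.65 in Control, 10040 to 20740 in 1XIMO and 2474 to 3093 in 6XIMO.

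The promoters of the 5 complex I genes called after 6 sessions on both scales are shown, since the rise of these genes was not removed by quantile normalization. They run from 250 bases before to 50 bases after the start of the gene, from RefSeq on build GRCr8, printed 5′ to 3′ on the strand of the gene. Capitals mark exact matches to any of 4 motifs searched on both strands, GCGCANGCG (NRF1), CCGGAAG (ETS factors such as GABP), TGACGTCA (the cAMP response element) and AAGATGGC (YY1), and no 2 matches overlap in these windows. Positions count from the gene start, negative before it. The Ndufa5 promoter lies on the minus strand at chr4:53971186-53971485 and holds an NRF1 match from position -32. The Ndufa12 promoter lies on the plus strand at chr7:30658066-30658365 with an NRF1 match, read on the other strand, from position -111. The Ndufa2 promoter, on the minus strand at chr18:28631835-28632134, holds an ETS match, read on the other strand, from position -146 and a YY1 match from position 27. The Ndufb5 promoter, on the plus strand at chr2:117447355-117447654, holds no match, and that of Ndufs7, on the minus strand at chr7:10110449-10110748, holds a YY1 match from position 5.
Ndufa5: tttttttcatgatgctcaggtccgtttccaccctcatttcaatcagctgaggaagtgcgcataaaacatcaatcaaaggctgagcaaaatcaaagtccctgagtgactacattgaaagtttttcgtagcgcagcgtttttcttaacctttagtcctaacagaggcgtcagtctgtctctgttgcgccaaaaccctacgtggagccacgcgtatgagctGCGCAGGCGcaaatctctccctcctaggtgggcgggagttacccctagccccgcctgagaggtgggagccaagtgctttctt
Ndufa12: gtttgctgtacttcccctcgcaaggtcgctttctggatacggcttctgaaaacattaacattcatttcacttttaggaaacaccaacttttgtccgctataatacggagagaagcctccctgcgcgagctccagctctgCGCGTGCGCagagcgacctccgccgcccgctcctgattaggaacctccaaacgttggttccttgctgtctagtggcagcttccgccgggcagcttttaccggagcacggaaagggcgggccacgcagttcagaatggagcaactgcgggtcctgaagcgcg
Ndufb5: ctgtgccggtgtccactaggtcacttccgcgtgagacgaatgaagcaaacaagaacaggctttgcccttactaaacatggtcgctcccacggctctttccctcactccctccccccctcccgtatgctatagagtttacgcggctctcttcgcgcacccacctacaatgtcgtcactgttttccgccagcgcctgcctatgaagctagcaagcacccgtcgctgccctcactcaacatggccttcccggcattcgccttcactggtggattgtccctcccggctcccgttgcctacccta
Ndufs7: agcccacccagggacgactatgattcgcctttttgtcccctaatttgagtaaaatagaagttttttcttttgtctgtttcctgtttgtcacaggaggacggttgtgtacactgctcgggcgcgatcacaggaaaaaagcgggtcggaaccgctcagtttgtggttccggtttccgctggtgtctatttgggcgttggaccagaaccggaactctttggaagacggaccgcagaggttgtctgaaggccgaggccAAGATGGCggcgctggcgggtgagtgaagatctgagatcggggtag
Ndufa2: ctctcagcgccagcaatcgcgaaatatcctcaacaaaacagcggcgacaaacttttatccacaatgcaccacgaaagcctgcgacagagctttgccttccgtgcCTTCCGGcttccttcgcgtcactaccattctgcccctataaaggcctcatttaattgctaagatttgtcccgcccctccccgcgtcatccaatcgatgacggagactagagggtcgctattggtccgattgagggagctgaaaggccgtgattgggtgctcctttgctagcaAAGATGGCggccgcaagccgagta

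Promoters were matched for 67 of the 77 members. The NRF1 motif was in 25.4% of the members' promoters, beside 13.2% of the 9350 matched genes tested and 6.26% of all 27457 promoters of the same length. The YY1 motif was in 23.9% of members, beside 5.53% and 3.44%. The ETS motif was in 28.4%, beside 17.6% and 9.22%, and the cAMP response element in 4.48%, beside 3.27% and 1.91%. Among matched members that rose after 6 sessions and among the others, the NRF1 motif was in 7 of 22 and 10 of 45, the YY1 motif in 7 of 22 and 9 of 45, and the ETS motif in 4 of 22 and 15 of 45. A match is a description of the letters and not of binding.

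Of the 33 complex I genes, 10 rose after 6 sessions (9.36% of all genes did), with a median log2 fold change of 0.40. The 10 were 1 of 6 core subunits and 9 of 27 accessory subunits. Without 6XIMO replicate 1, 24 rose (17.6% of all genes). After quantile normalization 5 rose (9.2%) and 1 fell (8.35%). The core subunit that rose was Ndufs7, which carries the last iron-sulfur cluster before ubiquinone. Its intensities were 12944, 17575 and 17944 in Control, 12527, 18499 and 19879 in 1XIMO and 57502, 39099 and 50078 in 6XIMO. All 6XIMO arrays exceeded all others, and 1XIMO overlapped Control. Ndufs7 rose by 1.59 ± 0.26 (SE, adjusted p = 0.00286), and by 1.03 after quantile normalization (adjusted p = 0.0256). Ndufb5, an accessory subunit of the membrane arm, went from 15189, 18933 and 17291 in Control and 16597, 19374 and 18534 in 1XIMO to 83326, 38838 and 43894 in 6XIMO. Again only 6XIMO stood clear of the other arrays. Ndufb5 rose by 1.61 ± 0.29 (adjusted p = 0.00438), and by 0.97 after quantile normalization (adjusted p = 0.0292). Ndufs7 and Ndufb5 were called against Control in all 19 alternative settings, and no other member besides Ndufa5 was. Against 1XIMO they differed by 1.54 (adjusted p = 0.012) and 1.52 (adjusted p = 0.0159).

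Ndufa12 and Ndufa2, accessory subunits of the matrix arm, are named after their values were seen. Ndufa12 had 22313, 22429 and 23309 in Control, 20305, 24135 and 22444 in 1XIMO and 39656, 47706 and 55142 in 6XIMO, and rose by 1.05 ± 0.20 after 6 sessions (adjusted p = 0.00637). All its 6XIMO arrays exceeded all other arrays. Ndufa2 rose by 1.23 ± 0.23 (adjusted p = 0.00492). Both calls were lost under median centring, with adjusted p = 0.183 for Ndufa12 and 0.0908 for Ndufa2. Ndufa3 and Ndufb7, membrane arm subunits, rose by 1.29 (adjusted p = 0.00891) and 1.30 (adjusted p = 0.0177), and missed the threshold after quantile normalization at adjusted p = 0.075 and 0.0589. In Ndufb7 the array 6XIMO 1 read 45330, against 18562 and 17993 in the other 6XIMO arrays and 9529 to 10418 in Control. Other subunits of the same complex did not pass on the deposited scale. Ndufa1, a small membrane arm subunit, read 38609, 39999 and 35289 in Control, 40776, 39168 and 34067 in 1XIMO and 30899, 68046 and 76845 in 6XIMO. Array 6XIMO 1 lay below Control and the other 6XIMO arrays above it, with a log2 fold change of 0.52 (adjusted p = 0.287), which was 0.93 without that array (adjusted p = 0.000596) and -0.24 after quantile normalization. Ndufa6, an accessory subunit that binds the acyl carrier protein and is also named after its values were seen, was lower in every 6XIMO array (9542, 11893 and 12720) than in Control (14629, 15231 and 15651). Its log2 fold change was -0.42 (adjusted p = 0.132), and -0.53 after quantile normalization (adjusted p = 0.0286). Ndufs4, needed late in complex I assembly, read 2814 to 3312 in Control, 4014 to 8035 in 1XIMO and 3660 to 9798 in 6XIMO without overlap of either stressed group with Control, but passed in neither comparison (log2 fold changes of 0.73 and 0.81, adjusted p = 0.306 and 0.149).

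Complex II, succinate dehydrogenase, feeds electrons of succinate into the chain and is the complex with all subunits encoded in the nucleus. In both stress groups 0 of its 4 genes passed by limma, also at an unadjusted p under 0.05. With quantile normalization and without 6XIMO replicate 1, Sdhb, Sdhc and Sdhd were lower after 1 session, with Sdhd at -0.53 (adjusted p = 0.0037), where 19% of all genes were called lower. The flavoprotein Sdha read 42706, 36971 and 43518 in Control, 47185, 39248 and 35717 in 1XIMO and 12607, 56701 and 69266 in 6XIMO. The iron-sulfur subunit Sdhb read 31997, 26577 and 30519, then 32604, 27254 and 24697, then 14539, 49777 and 59659. In both genes 6XIMO arrays 2 and 3 lay above Control and array 1 below it. Without array 1 Sdha, Sdhb and the membrane anchor Sdhc rose by 0.61, 0.88 and 0.92 (adjusted p = 0.0122, 0.00167 and 0.000354), while with all arrays their values were -0.16, 0.24 and 0.53. Sdhd is the other membrane anchor. Its intensities were 19504, 19792 and 21856 in Control, 16456, 16745 and 15951 in 1XIMO and 8095, 20089 and 15970 in 6XIMO. All 1XIMO arrays lay below all Control arrays, with a log2 fold change of -0.31 (adjusted p = 0.677). After 6 sessions the value was -0.57 (adjusted p = 0.198), -0.18 without array 1 (adjusted p = 0.284) and -0.81 after quantile normalization (adjusted p = 0.0202). A second Sdhd probe set gave -0.37 and -0.70.

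Complex III passes electrons from ubiquinol to cytochrome c. Of its 7 genes, 5 rose after 6 sessions (9.36% of all genes did), all 4 small subunits among them, with a median of 0.90. The count was 6 without 6XIMO replicate 1 (17.6% of all genes) and 0 after quantile normalization (9.2%). On that scale 1 was higher and 1 lower at an unadjusted p under 0.05. Uqcrq, a small subunit of the membrane part, had 16836, 20800 and 18555 in Control, 15337, 21469 and 19975 in 1XIMO and 86670, 36636 and 35151 in 6XIMO. All 6XIMO arrays were the higher, array 1 by far. Uqcrq rose by 1.37 ± 0.34 (SE, adjusted p = 0.018), by 0.94 without array 1, and was at 0.72 after quantile normalization (adjusted p = 0.13). Uqcr10, another small subunit, had 52680, 47517 and 49075 in Control, 55276, 49515 and 39454 in 1XIMO and 90680, 87275 and 113434 in 6XIMO, and rose by 0.96 ± 0.25 (adjusted p = 0.0214), but was at -0.23 after quantile normalization. Uqcr11, the hinge subunit Uqcrh and the core subunit Uqcrc1 rose by 1.14, 0.90 and 0.84 (adjusted p = 0.0133, 0.0145 and 0.0155). The other two did not pass. Uqcrc2, the partner of Uqcrc1, read 25639, 24716 and 29227 in Control and 7592, 42849 and 50034 in 6XIMO, with a log2 fold change of -0.06. Uqcrfs1, the Rieske iron-sulfur protein, is named after its values were seen and read 28788, 25315 and 30808 in Control, 27311, 27015 and 25477 in 1XIMO and 3675, 24736 and 27465 in 6XIMO. Array 6XIMO 1 was far below every other array, and the other 6XIMO arrays were within or below the Control range. Its log2 fold change was -1.05 ± 0.63 (adjusted p = 0.251), and -0.11 without array 1.

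**Figure D4:**
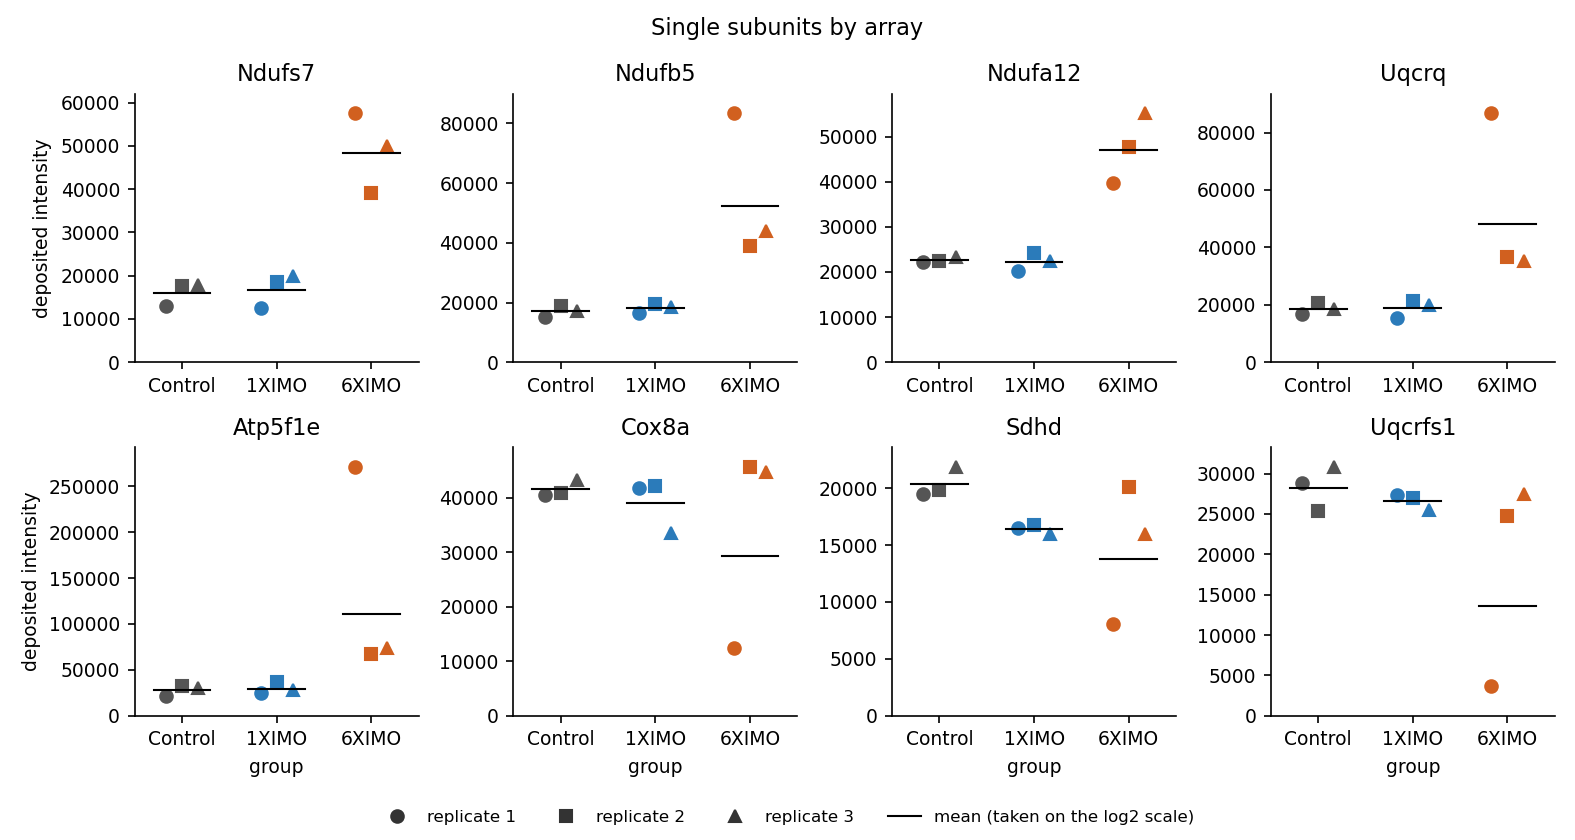
Intensity by array, on linear axes from 0, of 8 subunits of complexes I to V: Ndufs7, Ndufb5, Ndufa12, Uqcrq, Atp5f1e, Cox8a, Sdhd and Uqcrfs1. In the first 5 all 3 6XIMO arrays exceed all Control arrays, while in Cox8a, Sdhd and Uqcrfs1 array 6XIMO 1 falls to 12360, 8095 and 3675, below every other array.

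Complex IV, cytochrome c oxidase, reduces oxygen. Of its 14 genes 3 rose after 6 sessions (9.36% of all genes did), with a median of 0.22. Without 6XIMO replicate 1, 9 rose (17.6% of all genes) and 1 fell (30.7%). After quantile normalization 0 rose (9.2%) and 1 fell (8.35%). Cox6c, a small subunit, had 45646, 41354 and 40711 in Control, 51918, 47929 and 36225 in 1XIMO and 65167, 76379 and 83154 in 6XIMO. The 6XIMO arrays lay above all others, and Cox6c rose by 0.81 ± 0.24 (SE, adjusted p = 0.0369), with -0.13 after quantile normalization. Cox6b1, on the side of the intermembrane space, rose by 0.88 (adjusted p = 0.0334). Cox7a2l, which joins complexes III and IV into supercomplexes, had 18329, 19596 and 18886 in Control, 19073, 19280 and 18467 in 1XIMO and 42859, 30713 and 32011 in 6XIMO, and rose by 0.88 ± 0.20 (adjusted p = 0.0118), with 0.39 after quantile normalization (adjusted p = 0.181). Cox8a, the ubiquitous form of subunit VIII, read 40457, 40838 and 43206 in Control, 41789, 42141 and 33455 in 1XIMO and 12360, 45597 and 44608 in 6XIMO. Arrays 6XIMO 2 and 3 lay just above the Control range and array 1 far below it. The log2 fold change was -0.50 (adjusted p = 0.449), 0.12 without array 1 (adjusted p = 0.516) and -1.11 after quantile normalization (adjusted p = 0.0322).

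Some subunits of complex IV exist as tissue forms. Cox6a1, the form of most tissues, read 32277, 33017 and 33417 in Control and 29514, 57819 and 57483 in 6XIMO (log2 fold change 0.49, adjusted p = 0.251, and 0.81 without array 1, adjusted p = 0.00137). The heart and muscle form Cox6a2 and the forms Cox6b2 and Cox7b2, known from testis, were the 3 members that did not pass the filter. Cox6a2 read 170.8 to 409.8 in Control, 34.36 to 131.6 in 1XIMO and 1204, 11.04 and 25.5 in 6XIMO. The muscle and brown fat forms Cox7a1 and Cox8b had log2 fold changes after 6 sessions of 0.17 (adjusted p = 0.785) and 0.32 (adjusted p = 0.788). Cox8b varied within groups, reading 1823, 10442 and 10280 in Control and 2677, 17103 and 9589 in 1XIMO. The 4 brown fat markers measured, 2 of which are Cox7a1 and Cox8b, summed to 18250 to 28462 in Control, 20280 to 31187 in 1XIMO and 17595 to 26934 in 6XIMO, and the part of other tissue in these values was not tested. Ndufa4, once counted with complex I and now with complex IV, read 35351, 37134 and 40012 in Control and 6530, 54096 and 56026 in 6XIMO (-0.47, adjusted p = 0.658, and 0.56 without array 1, adjusted p = 0.0158). Its paralog Ndufa4l2, induced by hypoxia in several cell types, read 12383, 10719 and 10632 in Control, 13026, 11025 and 11041 in 1XIMO and 8481, 15621 and 15290 in 6XIMO (0.17, adjusted p = 0.651, and 0.46 without array 1, adjusted p = 0.0164). Both pairs of 6XIMO arrays 2 and 3 lay above Control and both arrays 1 below it.

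Of the 16 ATP synthase genes 6 rose after 6 sessions (9.36% of all genes did), with a median of 0.69, and 15 of 16 had a log2 fold change above 0. Without 6XIMO replicate 1 all 16 rose, beside 17.6% of all genes. After quantile normalization 0 rose by limma (9.2% of all genes did), with 4 higher at an unadjusted p under 0.05. Of the catalytic F1 head 3 of 5 subunits rose. Atp5f1b, the catalytic beta subunit, had 61817, 50156 and 56356 in Control, 76790, 58869 and 44572 in 1XIMO and 108085, 107640 and 131103 in 6XIMO. All 6XIMO arrays exceeded the rest, and Atp5f1b rose by 1.04 ± 0.28 (SE, adjusted p = 0.025), with -0.23 after quantile normalization. Atp5f1d, the delta subunit of the rotating stalk, had 17959, 25590 and 24119 in Control, 26449, 32189 and 28128 in 1XIMO and 59332, 52378 and 52996 in 6XIMO. The 3 groups did not overlap. It rose by 1.30 ± 0.22 after 6 sessions (adjusted p = 0.0034), and its 0.37 after 1 session did not pass (adjusted p = 0.393). Atp5f1e, the epsilon subunit of the same stalk, had 21908, 32630 and 30731 in Control, 24524, 37181 and 28107 in 1XIMO and 270925, 67737 and 74034 in 6XIMO. Array 6XIMO 1 was far above the other 2, the opposite of Sdha or Uqcrc2. Atp5f1e rose by 1.98 ± 0.49 (adjusted p = 0.0168), by 1.34 without that array, and was at 0.74 after quantile normalization (adjusted p = 0.149). The alpha and gamma subunits, Atp5f1a and Atp5f1c, had log2 fold changes of 0.07 and 0.25 (adjusted p = 0.935 and 0.628).

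Outside the F1 head, the membrane subunits Atp5mf and Atp5mpl and the stalk subunit Atp5po rose by 1.16, 0.84 and 0.78 (adjusted p = 0.00432, 0.0185 and 0.024). Atp5mc3, 1 of the 3 genes for the c subunit that forms the rotor ring, read 45769, 39622 and 43452 in Control, 52517, 41537 and 33569 in 1XIMO and 55146, 73423 and 95632 in 6XIMO. The 6XIMO arrays lay above the others, at 0.77 (adjusted p = 0.0756), and 0.97 without array 1 (adjusted p = 0.00303). Atp5if1, the inhibitor that stops ATP hydrolysis when the proton gradient falls, read 19685, 15663 and 17410 in Control, 16707, 20203 and 16357 in 1XIMO and 19474, 25200 and 23963 in 6XIMO. It overlapped Control, with 0.38 (adjusted p = 0.198).

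A few genes had further probe sets, which did not all follow the one used. The probe set of Ndufv3 that was used, a subunit of the NADH-oxidizing module, differed by -0.34 after 1 session and 0.17 after 6. Its other probe set read 2389, 2818 and 2726 in Control, 1210, 1485 and 1292 in 1XIMO and 418.1, 1288 and 759.4 in 6XIMO, differences of -0.99 and -1.80. Those groups of Control and stressed arrays did not overlap. For Uqcrc2 the second probe set differed by -1.13 after 6 sessions beside -0.06 for the first, and for Ndufa7 by -0.47 beside 0.87. Whether these probe sets read different transcript forms was not tested.

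Genes that serve the chain without bearing its names were counted from lists. Of 49 assembly factors and partner subunits 42 were measured, of which 4 fell and 0 rose after 1 session, with 0 higher at an unadjusted p under 0.05, where 5.31% of all genes were called lower. After quantile normalization 0 fell by limma after 1 session (3.07% of all genes did), with 4 lower at an unadjusted p under 0.05. Without 6XIMO replicate 1, whose absence changes the spread of the fit, 12 of 43 fell, beside 20.3% of all genes. After 6 sessions 3 rose and 4 fell, beside 9.36% and 14.9% of all genes. The counts became 4 and 4 after quantile normalization (9.2% and 8.35% of all genes). Without replicate 1 they were 8 and 7 of 43 (17.6% and 30.7% of all genes). Atpaf1, the chaperone of the F1 beta subunit, had 4056, 4967 and 4827 in Control, 2106, 2257 and 2328 in 1XIMO and 792.9, 1040 and 824 in 6XIMO. The 3 groups were fully separate and in order of the number of sessions. Atpaf1 fell by 1.04 ± 0.20 (SE) on the log2 scale after 1 session (adjusted p = 0.0125, 0.258 after quantile normalization) and fell by 2.37 ± 0.20 after 6 (adjusted p = 0.000152, 0.00745 after quantile normalization). It was lower in 6XIMO than in 1XIMO, with a log2 difference of -1.33 (adjusted p = 0.0105). Cox20, which helps mature a mitochondrially encoded subunit of complex IV, had 2705, 2627 and 2493 in Control, 1723, 1958 and 1556 in 1XIMO and 1312, 480 and 593.7 in 6XIMO. It fell by 1.83 ± 0.35 after 6 sessions (adjusted p = 0.00567). The falls of Atpaf1 and Cox20 after 6 sessions held in all 19 alternative settings. Cox16, another complex IV assembly factor, fell by 0.90 (adjusted p = 0.0132). Bcs1l, which inserts the Rieske protein into complex III, fell by 0.88 after 1 session (adjusted p = 0.0324, 0.0578 when replicate numbers formed blocks and 0.266 after quantile normalization) and by 0.93 after 6 (adjusted p = 0.0138, and 0.102 after quantile normalization). Sdhaf1, an assembly factor of complex II, fell by 0.74 after 1 session (adjusted p = 0.035, and 0.0968 after quantile normalization), a call that held in 10 of 19 alternative settings. Cox4i1, the common form of subunit IV of complex IV, lies outside the naming rule and is named after its values were seen. It rose by 1.05 after 6 sessions (adjusted p = 0.0139) and was at -0.07 after quantile normalization. The others of this list that rose after 6 sessions, Uqcc3 and Cox17, are also named after their values were seen. Uqcc3 rose by 1.11 (adjusted p = 0.017, and 0.0218 after quantile normalization). Cox17 rose by 0.70 (adjusted p = 0.0258, and 0.0135 after quantile normalization).

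Of 18 listed regulators of mitochondrial gene expression 16 were measured. After 1 session 1 rose and 0 fell, beside 4.2% and 5.31% of all genes. After 6 sessions 2 rose and 2 fell, beside 9.36% and 14.9% of all genes. The counts became 2 and 0 after quantile normalization (9.2% and 8.35%) and 2 and 6 without 6XIMO replicate 1 (17.6% and 30.7%). Pprc1, a coactivator of the PGC-1 family, had 1666, 1325 and 1265 in Control, 2641, 3363 and 3661 in 1XIMO and 2345, 4551 and 3625 in 6XIMO. Both stressed groups lay above Control. Pprc1 rose by 1.17 ± 0.27 after 1 session (adjusted p = 0.0254), a call that held in 14 of 19 alternative settings, with adjusted p up to 0.34. After 6 sessions it rose by 1.26 ± 0.27 (adjusted p = 0.0101, and 0.145 under median centring). The other listed members of this family, Ppargc1a and Ppargc1b, are named after their values were seen. Ppargc1a read 927.6, 1003 and 777.7 in Control and 1695, 89.02 and 32.09 in 6XIMO. Its log2 fold change after 6 sessions was -2.155 (adjusted p = 0.175), and -3.685 without 6XIMO replicate 1 (adjusted p = 0.000128). That of Ppargc1b was -0.66 (adjusted p = 0.295), and -1.03 without that array (adjusted p = 0.0373). Yy1, a transcription factor with sites at many mitochondrial genes, had 11569, 10038 and 11646 in Control, 17474, 15923 and 17437 in 1XIMO and 22063, 24526 and 23984 in 6XIMO, with no overlap between any groups. Yy1 was 0.61 higher after 1 session (adjusted p = 0.0534) and rose by 1.09 ± 0.17 after 6 (adjusted p = 0.00254, 0.00617 after quantile normalization and 0.148 under median centring). Gabpa, the DNA-binding part of the ETS factor GABP, fell by 0.92 after 6 sessions (adjusted p = 0.0229). Ssbp1, which coats single-stranded mitochondrial DNA, had 5720, 5836 and 6899 in Control, 2468, 2383 and 2313 in 1XIMO and 975.7, 2994 and 3418 in 6XIMO. Its log2 fold change after 1 session was -1.355, without overlap but short of the threshold (adjusted p = 0.0661, and 5.7e-05 without 6XIMO replicate 1). After 6 sessions it was -1.5 (adjusted p = 0.0239), and -0.93 without replicate 1 (adjusted p = 0.000679). After quantile normalization neither Gabpa nor Ssbp1 passed after 6 sessions (adjusted p = 0.0599 and 0.107).

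The 15 measured genes of the citric acid cycle and pyruvate dehydrogenase, of 19 listed, gave 0 calls after 1 and after 6 sessions, also at an unadjusted p under 0.05. By limma there were 0 calls after quantile normalization too, with 1 lower at an unadjusted p under 0.05 in each comparison. Without 6XIMO replicate 1, 6 rose after 6 sessions, beside 17.6% of all genes. Idh2, which makes NADPH in the matrix, had the smallest adjusted p after 6 sessions (0.52, adjusted p = 0.176). Of 9 measured carriers and channels of 13 listed, 1 fell after 6 sessions (14.9% of all genes did) and 0 rose (9.36%). At an unadjusted p under 0.05, 1 was higher. After quantile normalization 1 fell (8.35% of all genes) and 0 rose (9.2%). Without replicate 1 the counts were 1 (30.7%) and 6 (17.6%). The one that fell was Ucp2, an uncoupling protein homologue of the inner membrane. Its intensities were 30645, 25239 and 27348 in Control, 25069, 27097 and 24348 in 1XIMO and 8014, 15604 and 12406 in 6XIMO, so all 6XIMO arrays lay below all others. Ucp2 fell by 1.26 ± 0.25 on the log2 scale (adjusted p = 0.00728), by 1.52 after quantile normalization (adjusted p = 0.000421), and by 0.99 without replicate 1 (adjusted p = 0.000487). Under median centring its adjusted p was 0.303.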

How the data were processed

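RNA of 9 adrenal medulla samples was measured on Affymetrix rat arrays, labelled and run by the manufacturer per the labels. The deposited table gives linear intensities, 1 for each probe set on each array. How the authors summarised probes, corrected background and set the scaling target is not given in the sources used here. Of 31099 probe sets, 57 were controls, 20826 of the rest had 1 gene symbol in GEO's platform annotation, 436 several and 9780 none, and only the first kind was used for genes. Values were transformed as log2(intensity + 16), the dimmest 30% of probe sets were left out, each gene was read from its brightest probe set on average, and 11287 genes were tested. The test was limma's moderated test, with trend = TRUE in eBayes (limma 3.58.1, R 4.3.3). All 9 arrays entered 1 fit with 6 residual degrees of freedom. Tests were two-sided, with Benjamini-Hochberg adjustment over all genes tested and a threshold of 0.05. Errors of fold changes are standard errors of the fit. The number of arrays limits the precision.

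Named genes were, in each comparison, up to 6 members with the largest rise or fall among called members whose groups did not overlap, the brightest member of each complex, listed isoforms and regulators, the Sdh genes, and from each list up to 3 genes, by smallest adjusted p. Others are said to be named after their values were seen. The members and lists were chosen with earlier results of these data known. Alternatives were no filter, quantile normalization, median centring, pseudocounts of 1 and 64, the mean of all probe sets, a replicate block, fits of only 2 groups, leaving out each array, and quantile normalization without 6XIMO replicate 1. Median centring without 6XIMO replicate 1 was added after seeing the data. Shares over all genes are given for the main fit, quantile normalization, leaving out 6XIMO replicate 1, and both together. Counts from the other alternatives, counts at an unadjusted p and counts above 0 lack them. Same-numbered Control and 1XIMO arrays deviated together over genes (r = 0.508, 0.36 and 0.25). No label says that the number marks a shared animal, batch or day, so the main tests used no pairing. The replicate block was an alternative only, and it changed no call of a member in that comparison. Promoters are those of RefSeq, and gene order was taken from RefSeq's gene table.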

Additional observations from a re-analysis of the deposited data

Results flagged for a closer look

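The difference between the responses to 6 and to 1 session was itself tested, as 6XIMO against 1XIMO with limma. At an adjusted p under 0.05, 18 members were higher in 6XIMO, beside 5.21% of all genes tested. The log2 differences of the called members with the largest values were 1.909 for Atp5f1e, 1.536 for Ndufs7, 1.524 for Ndufb5, 1.361 for Uqcrq, 1.329 for Ndufb7 and 1.272 for Ndufa3. In each, all 6XIMO arrays exceeded all 1XIMO arrays. The count of 18 was 4 after quantile normalization (3.46% of genes) and 58 without 6XIMO replicate 1 (15.1%). It was 0 under median centring, in a fit of only the 2 groups, and without 1XIMO replicate 2 or 3.

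Probe sets annotated to several symbols were outside the naming rule, and 3 of them had every 6XIMO array above every Control array. Of all genes tested, 14.9% did so. The probe set of Cox7a2 and Cox7a2l2 differed by 0.6982 on the log2 scale, that of Cox5a and LOC100361008 by 0.6811, and that of Uqcrb and Uqcrbl1 by 0.9909. After quantile normalization the differences were -0.13, 0.22 and 0.22. The probe sets of Atp5mc1, Atp5mc2, Ndufs5 and Ndufa10, also with several symbols, were not separated in this way. They differed by 0.05, -0.53, 0.05 and 0.55 on the deposited scale. These differences were not tested.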

How the results depend on the processing

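Against Control after 1 session, the members' median was -0.15 after quantile normalization (also without 6XIMO replicate 1, -0.1478) and 0.13 under median centring (0.1296 with replicate 1 left out as well). With replicate 1 left out, 2 were higher under either scaling, and 12 were lower under quantile normalization. After 6 sessions, the 24 higher members became 5 after quantile normalization, 6 under median centring and 14 in a fit of only the 2 groups. With 6XIMO replicate 1 left out too, they were 10 and 67 under the same 2 scalings. Lower members numbered 3 after quantile normalization, 5 with replicate 1 left out as well, and 1 with the mean of all probe sets. Between 6XIMO and 1XIMO, the 18 higher members became 4 after quantile normalization, 0 under median centring, 0 in a fit of only the 2 groups and 67 under median centring without replicate 1. Lower members numbered 1 after quantile normalization and 4 with replicate 1 left out as well. Under median centring without replicate 1 the medians were 1.314 against Control and 1.187 against 1XIMO. The causes were not tested.

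Leaving out 1 array at a time, the count of higher members ranged from 1 to 2 after 1 session, with 0 to 0 lower and a median of -0.05046 to 0.03733. It ranged from 10 (without Control replicate 1) to 58 (without 6XIMO replicate 1) after 6 sessions, with 0 to 1 lower and a median of 0.3013 to 0.708. The count without Control replicate 2 was 13 and without Control replicate 3 was 11. Between 6XIMO and 1XIMO it ranged from 0 (without 1XIMO replicate 2 or 3) to 58, with 0 to 0 lower and a median of 0.3068 to 0.7102. It was 9, 7 and 6 without Control replicates 1 to 3, 1 without 1XIMO replicate 1, and 10 without 6XIMO replicate 3.

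5 calls turned in sign under quantile normalization, with and without 6XIMO replicate 1. These were Atp5f1b (-0.2324 and -0.1643), Cox4i1 (-0.07066 and -0.06014), Cox6c (-0.1313 and -0.1121) and Uqcr10 (-0.2281 and -0.1901) against Control, and Uqcr10 against 1XIMO (-0.03772 and -0.02894). With a replicate block, 1, 24 and 12 members were higher in the 3 comparisons and 0 lower. Same-numbered arrays of 6XIMO and the other groups did not all correlate over 0.1 (0.0602 to 0.158), and no label gives a pairing, so the block is a description. Under it Cox6c after 6 sessions lost its call (adjusted p = 0.0656). Without detection calls, signal over background could not be set as a limit for dim probe sets.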
